A study of Mus musculus with 6 samples.

Results

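The pan-endothelial identity genes examined were *Pecam1*, *Cdh5*, *Esam*, *Cldn5*, *Icam2*, *Emcn*, *Eng*, *Ramp2*, *Vwf* and *Egfl7*. They were taken by symbol from the count tables, where they made up 10 of 24062 genes, and 10 of 10 passed the filter on low counts that left 12688 genes for testing. RNA was sequenced from cells of the aorta-gonad-mesonephros region (AGM) of embryos at embryonic day 10.5, sorted for CD31 and ckit and then by Venus fluorescence into a medium (Vmed) and a high (Vhigh) fraction, with 3 libraries per fraction numbered 1 to 3 in both. All embryos carried the Gata2Venus reporter on 1 allele (G2 V/+, C57BL/6JOlaHsd), in which an IRES-Venus cassette sits behind the *Gata2* coding sequence, so that no group lacked the reporter. Endothelium negative for ckit was not analysed here. Venus reports *Gata2* transcription wherever it occurs and is not restricted to 1 cell type. The comparison asks whether endothelial junction and surface genes, which should fade as cells turn hematopoietic, differ between CD31+ckit+Vmed and CD31+ckit+Vhigh cells.

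Endothelial cells form a sealed sheet through adherens and tight junctions, which are built from transmembrane adhesion molecules held by catenins and other cytoplasmic partners. During endothelial-to-hematopoietic transition (EHT), single cells of the aortic wall loosen these contacts, round up, bulge into the lumen and join clusters of hematopoietic cells while they switch on blood genes such as *Runx1*, *Myb* and *Ptprc*. Several endothelial surface molecules, CD31 among them, remain on early hematopoietic cells, so the class as a whole need not disappear at the moment a cell turns hematopoietic.

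All 10 are protein-coding genes. In GRCm38 with GENCODE annotation, *Icam2* (chr11:106377656-106388075, minus strand) and *Pecam1* (chr11:106654217-106750628, minus strand) lie 266 kb apart with 2 protein-coding genes between them, and *Ramp2* is on the same chromosome (chr11:101246028-101259546, plus strand). *Egfl7* (chr2:26580014-26593120) and *Eng* (chr2:32646595-32682669) share chromosome 2 at a distance of 6.05 Mb. The others lie alone: *Cdh5* on chr8:104101625-104144511, *Emcn* on chr3:137341067-137432185, *Esam* on chr9:37528078-37538319, *Vwf* on chr6:125546774-125686679 and *Cldn5*, a gene without introns and with 1 annotated transcript of 1416 bp, on chr16:18776847-18778262, all on the plus strand. Some share exonic bases with a neighbor: *Ramp2* 1103 bp with *Vps25* on the same strand, *Egfl7* 64 bp with *Agpat2* and *Eng* 61 bp with *Fpgs*, both on the opposite strand. The strand setting of the counting is not given in the sources used here, so reads over these stretches cannot be assigned to 1 gene with certainty.

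Promoter sequence from RefSeq (GRCm38.p6, 250 bases before to 50 after a transcription start) was at hand for 4 of the 10 genes, *Emcn*, *Eng*, *Cldn5* and *Egfl7*. They are shown because these genes span the patterns described here, from separation of the fractions (*Emcn*) to a split by replicate number (*Eng*) and near loss in 1 library (*Cldn5*), and because ETS, GATA and RUNX factors act in hemogenic endothelium. Capitals mark, on either strand, 6-letter matches to 3 motifs, which did not overlap in these windows: AGGAAG, with A or C as the first letter, for ETS factors, AGATAA, with A or T as the first and A or G as the last letter, for GATA factors and TGTGGT for RUNX factors. *Egfl7* has 3 starts in the table, and 1 of them is shown.
Emcn, chr3:137340828-137341127, plus strand: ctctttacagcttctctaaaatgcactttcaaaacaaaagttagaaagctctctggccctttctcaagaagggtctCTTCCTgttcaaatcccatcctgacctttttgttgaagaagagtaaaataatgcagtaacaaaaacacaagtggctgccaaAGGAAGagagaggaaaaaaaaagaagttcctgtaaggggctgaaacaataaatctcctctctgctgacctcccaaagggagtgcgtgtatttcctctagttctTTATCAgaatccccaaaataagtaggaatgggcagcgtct
Eng, chr2:32646345-32646644, plus strand: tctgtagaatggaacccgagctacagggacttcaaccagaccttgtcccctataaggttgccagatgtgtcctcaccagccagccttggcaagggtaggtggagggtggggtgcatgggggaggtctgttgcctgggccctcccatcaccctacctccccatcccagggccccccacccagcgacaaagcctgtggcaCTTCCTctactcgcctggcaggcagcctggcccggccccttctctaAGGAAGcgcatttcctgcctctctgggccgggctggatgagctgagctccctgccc
Cldn5, chr16:18776597-18776896, plus strand: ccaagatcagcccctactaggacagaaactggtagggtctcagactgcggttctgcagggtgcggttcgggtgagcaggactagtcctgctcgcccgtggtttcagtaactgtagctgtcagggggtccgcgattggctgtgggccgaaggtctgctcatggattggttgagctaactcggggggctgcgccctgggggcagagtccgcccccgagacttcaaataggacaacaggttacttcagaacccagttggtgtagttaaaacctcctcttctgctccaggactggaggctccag
Egfl7, chr2:26583615-26583914, plus strand: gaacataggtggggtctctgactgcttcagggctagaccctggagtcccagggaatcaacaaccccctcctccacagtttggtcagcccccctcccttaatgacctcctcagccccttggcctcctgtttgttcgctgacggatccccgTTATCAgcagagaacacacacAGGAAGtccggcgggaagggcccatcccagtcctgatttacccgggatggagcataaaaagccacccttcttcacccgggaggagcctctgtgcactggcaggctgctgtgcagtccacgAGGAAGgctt
The *Emcn* window holds ETS letters at -174 and -93 and GATA letters at 10, counted from the start site. The *Eng* window holds 2 ETS matches, at -52 and -6, and no GATA match. The *Egfl7* window holds ETS matches at -80 and 40 and a GATA match at -101, and the *Cldn5* window holds none of these letters. Among all 32851 promoters of the same 300 bases, 46.5% held an ETS match, 29.8% a GATA match and 16.8% a RUNX match.

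Gene counts per library ranged from 8296831 to 12035206, and 3 counts corresponded to 0.249 to 0.362 counts per 1000000 gene counts (CPM). The libraries differed in makeup as well as depth: ribosomal *Rn45s* took 0.887% to 1.53% of gene counts in libraries numbered 1 and 2 of either fraction but 10.5% and 7.47% in Vmed 3 and Vhigh 3, and the number of genes with a count ran from 10427 in Vhigh 1 to 18460 in Vhigh 2. Libraries with the same number deviated together from their group means (r = 0.21, 0.21 and 0.39 over genes). The study describes independent experiments, but nothing says how many embryos each library pooled, so p-values measure the spread between these samples only. *Pecam1* and *Kit*, which encode the sorted proteins CD31 and ckit, were detected in every library, with at least 560 counts.

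The pan-endothelial genes were expressed in both fractions and were, for most members, at a lower mean level in Vhigh, but none passed the threshold between the fractions. The log2 fold change of Vhigh over Vmed was below 0 for 9 of 10 members, against 51.1% of all tested genes, with a median of -0.80 against -0.02 over all tested genes. With edgeR's quasi-likelihood test and Benjamini-Hochberg adjustment, 0 of 10 members were called (adjusted p = 0.9998 for each), as were 0% of all genes. At an unadjusted p under 0.05, 1 member was lower in Vhigh, *Emcn*, against 1.17% of all genes. The likelihood ratio test and DESeq2 called 21 and 51 genes, respectively, and again 0 members. Every Vhigh library lay below every Vmed library for 2 members, *Emcn* and *Icam2*, against 5.3% of all genes, and no member had every Vhigh library above, against 3.64% of all genes. That count changed with single libraries: without Vmed 1 it was 6 (*Pecam1*, *Cdh5*, *Emcn*, *Esam*, *Egfl7* and *Icam2*), and without Vhigh 3 it was 4 (*Emcn*, *Cldn5*, *Ramp2* and *Icam2*). Without Vmed 2 the remaining libraries had *Vwf* higher in every Vhigh library. Fewer libraries separate more easily, and the share over all genes was not computed with libraries left out. These counts therefore cannot be set against the 5.3%. The exact two-sided permutation p was 0.1 for *Emcn* and *Icam2*, the smallest that 3 against 3 libraries allow, and 0.3 to 0.8 for the others. In bulk samples, fewer cells that express a gene and less of its RNA per cell cannot be told apart.

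**Figure D1:**
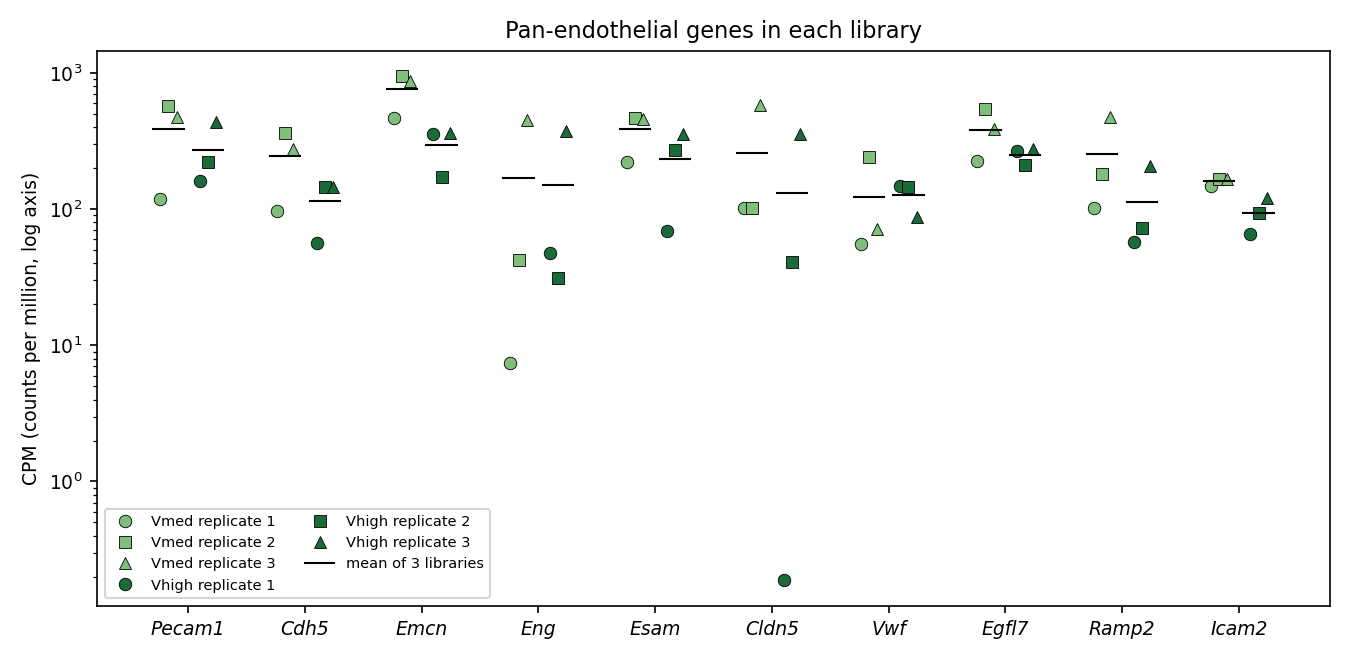
CPM (log axis) of the 10 pan-endothelial genes in each of the 6 libraries. Light symbols are Vmed and dark symbols Vhigh, the shape gives the replicate number and the bar the mean of 3 libraries. The fractions are apart only for *Emcn* and *Icam2*, and *Cldn5* stands at 0.188 CPM in Vhigh 1.

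Among the adhesion molecules, *Cdh5*, which encodes VE-cadherin, the transmembrane core of endothelial adherens junctions, had 97.5, 361 and 275 CPM in Vmed libraries 1, 2 and 3 and 56.7, 145 and 146 CPM in Vhigh libraries 1, 2 and 3. Each Vhigh library was below the Vmed library of its number, yet Vmed 1 lay below Vhigh 2 and 3, so the fractions overlapped. The fitted log2 fold change was -1.12 ± 0.59 (SE, n = 3 per fraction). *Pecam1*, which encodes the adhesion molecule CD31 found at lateral endothelial contacts and on many blood cells, had 118, 569 and 476 CPM in Vmed and 160.1, 224 and 436 CPM in Vhigh. Its lowest library was a Vmed library and the ranges overlapped almost entirely, with a log2 fold change of -0.52 ± 0.62. Both fractions had been sorted for this protein.

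*Esam*, which encodes an immunoglobulin-family molecule of endothelial tight junctions that is also present on hematopoietic stem cells and platelets, had 223, 471 and 462 CPM in Vmed and 68.9, 274 and 355 CPM in Vhigh. Only Vhigh 1 was clearly apart from the rest, and the log2 fold change was -0.78 ± 0.60. *Icam2*, which encodes a ligand of leukocyte integrins on resting endothelium, had 148, 166 and 167 CPM in Vmed and 65.6, 93.5 and 120.1 CPM in Vhigh. The Vmed libraries were the closest together of any member, and all 3 lay above the highest Vhigh library. The means were 160.1 ± 10.5 and 93.0 ± 27.2 CPM (SD, n = 3 each), with a log2 fold change of -0.82 ± 0.51.

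*Cldn5*, which encodes claudin-5, the main claudin of endothelial tight junctions, had the widest range. Its counts were 888, 842 and 5627 in Vmed and 2, 442 and 4289 in Vhigh, or 102, 102 and 579 CPM against 0.188, 40.7 and 356 CPM. Libraries numbered 3 were the highest of both fractions, and Vhigh 1, with 2 counts in 10660122, lay under the limit of 3 counts. Vmed 1 held 542 times the CPM of Vhigh 1 (exact 95% interval of 149 to 4480, counting error only). The other 9 pan-endothelial genes in Vhigh 1 were at 47.4 CPM or more. Low values in this library were not particular to *Cldn5*: 32.5% of all tested genes were at 3 counts or fewer in Vhigh 1, against 1.18% to 10.4% in the other libraries, and so were 6 of 30 other endothelial genes (*Plvap*, *Nos3*, *Rasip1*, *Ushbp1*, *Stab2* and *Sox18*) and 2 of 15 junction partners (*Jam2* and *Ptprb*), named after their values were seen. The fitted log2 fold change was -1.003 ± 1.49. It became 0.38 without Vmed 3, -3.82 without Vhigh 3 and -2.56 ± 1.22 with the replicate number as a block.

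Of the surface glycoproteins and receptors, *Emcn*, which encodes endomucin, a mucin-like sialoglycoprotein of venous, capillary and hemogenic endothelium, had 465, 951 and 869 CPM in Vmed and 358, 173 and 360.3 CPM in Vhigh. All Vhigh libraries were below all Vmed libraries, although the gap between Vmed 1 and Vhigh 3 was small beside the spread within either fraction. The means were 762 ± 260.3 and 297 ± 107 CPM (SD, n = 3 each). Its log2 fold change of -1.34 ± 0.50 was the lowest of the members in this fit, and in edgeR's quasi-likelihood test it ranked 146 of 12688 by unadjusted p, with an adjusted p of 0.9998.

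*Ramp2*, which encodes the accessory protein that turns the receptor encoded by *Calcrl* into an adrenomedullin receptor, had 101, 180.2 and 476 CPM in Vmed and 57.6, 72.6 and 207 CPM in Vhigh. Library 1 was the lowest and library 3 the highest in both fractions, and each Vhigh library was below its same-numbered Vmed library, with a log2 fold change of -1.19 ± 0.71. *Eng*, which encodes endoglin, a coreceptor for BMP9 and other TGF-β family ligands, had 7.44, 42.3 and 455 CPM in Vmed and 47.4, 31.2 and 376 CPM in Vhigh. Both libraries numbered 3 were far above the other 4, whichever the fraction. Its log2 fold change of -0.16 ± 1.30 had no stable direction: it was -2.03 without Vhigh 3, 2.66 without Vmed 3 and 0.52 ± 0.66 with the replicate number as a block.

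The genes of the secreted proteins did not separate the fractions. *Vwf*, which encodes the von Willebrand factor that endothelial cells store in Weibel-Palade bodies, had 55.3, 243 and 71.1 CPM in Vmed and 149, 146 and 88.3 CPM in Vhigh. Vmed held both the highest library and the 2 lowest, and the log2 fold change was 0.05 ± 0.65, with values from -0.49 to 0.96 when libraries were left out. *Egfl7*, which encodes an extracellular matrix protein of endothelium and whose locus hosts *Mir126a*, had 225, 541 and 387 CPM in Vmed and 267, 211 and 276 CPM in Vhigh. The Vhigh libraries were close together (252 ± 35.2 CPM, SD, n = 3), with Vhigh 2 just below the lowest Vmed library and the others inside the Vmed range, and the log2 fold change was -0.61 ± 0.47. The count row named *Mir126* held 0, 8 and 22 counts in Vmed and 0, 0 and 22 in Vhigh, which are reads over the locus and not a measure of the mature miRNA.

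Because same-numbered libraries deviated together, the fractions were also compared within each number, although the labels and methods do not say that these shared a sort. Of the 10 members, 6 were lower in Vhigh in 3 of 3 pairs, namely *Cdh5*, *Esam*, *Cldn5*, *Icam2*, *Emcn* and *Ramp2*, against 16.5% of all tested genes. *Pecam1*, *Eng* and *Egfl7* were lower in pairs 2 and 3 and higher in pair 1, and *Vwf* was lower in pair 2 alone. In log2 CPM, pair 2 ranged from -2.60 (*Emcn*) to -0.58 (*Eng*), with all 10 members lower in Vhigh. Pair 1 was the most uneven, from -1.63 (*Esam*) to 2.70 (*Eng*) apart from *Cldn5* at its 2 counts. Pair 3 had the narrowest range, from -1.28 (*Emcn*) to 0.30 (*Vwf*).

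**Figure D2:**
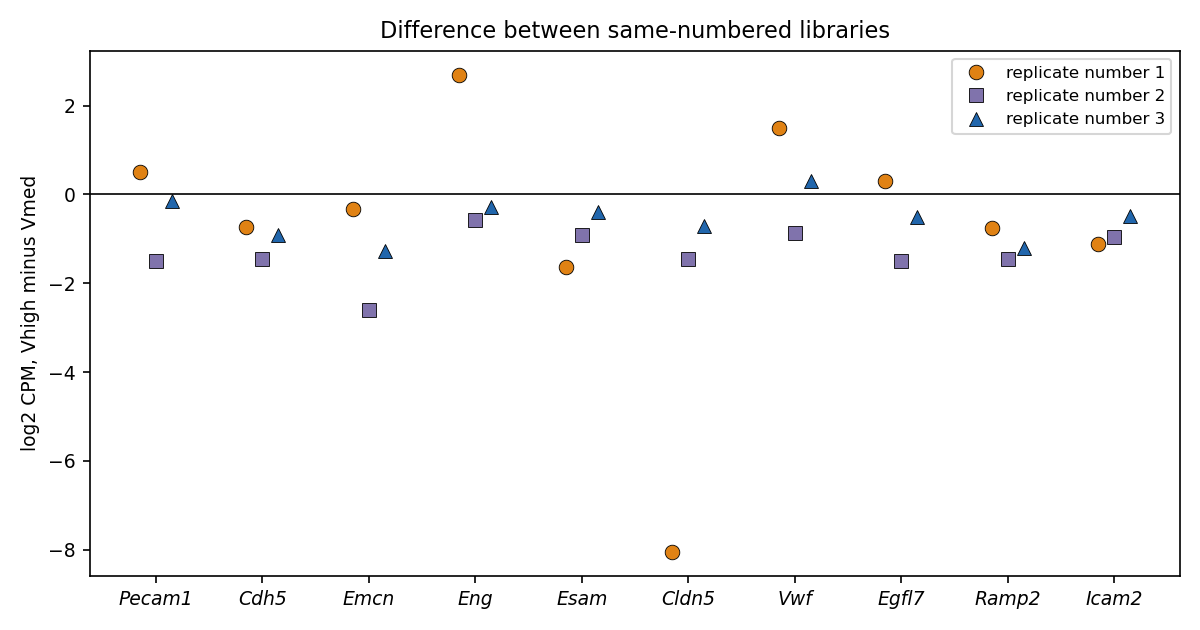
Difference in log2 CPM between the Vhigh and the Vmed library of the same replicate number, for each of the 10 genes, with the shape giving the number. Points below 0 are lower in Vhigh. All 3 points are below 0 for *Cdh5*, *Emcn*, *Esam*, *Cldn5*, *Ramp2* and *Icam2*, and the *Cldn5* value of pair 1 (-8.05) depends on the prior count since it rests on 2 counts.

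In the model that also held the replicate number (the replicate block), the standard errors were smaller for all 10 members. The unadjusted p of edgeR's quasi-likelihood test was then under 0.05 for 5 members, all lower in Vhigh, against 2.36% of all genes in that direction. In that model, fitted across all genes with edgeR, these were *Ramp2* (log2 fold change -1.14 ± 0.29), *Cdh5* (-1.04 ± 0.30), *Esam* (-0.98 ± 0.30), *Emcn* (-1.40 ± 0.43) and *Icam2* (-0.86 ± 0.34). After Benjamini-Hochberg adjustment none was called, nor was any other gene (0%), and the lowest adjusted p of a member was 0.92 (*Ramp2*). The likelihood ratio test with the block called 74 genes (0.583%) and 0 members, and the lowest adjusted p of a member was 0.44 (*Emcn*). The median log2 fold change of the members was -0.92 with the block, against -0.11 over all tested genes.

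**Figure D3:**
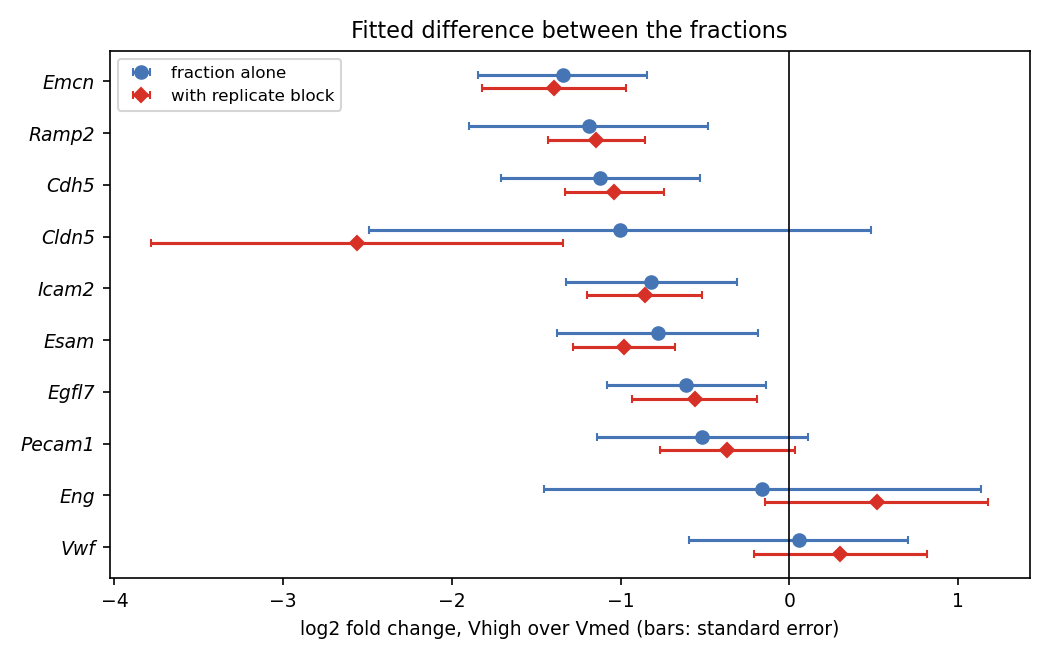
Fitted log2 fold change of Vhigh over Vmed with its standard error for each pan-endothelial gene, from the model with the fraction alone (circles) and with the replicate block (diamonds). In the model with the fraction alone 9 of 10 values are below 0, and with the block 8 of 10, as *Eng* moved from -0.16 to 0.52.

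The replicate number accounted for more of the variance of log2 CPM than the fraction did in 7 of 10 members. The number has more levels than the fraction, so a larger share is expected for it even without any effect. The same count over all genes is not given here. Its share was highest for *Eng* (85.1%, with 2.16% for the fraction), followed by *Pecam1* (70.1% and 5.13%) and *Ramp2* (68.0% and 30.1%). The fraction had the larger share for *Icam2* (76.6%, with 15.8% for the number), *Emcn* (63.5% and 8.32%) and *Egfl7* (33.3% and 9.45%). The medians over the members were 29.9% for the fraction and 56.1% for the number, beside 11.3% and 55.1% over all tested genes, so the share of the number was close to that of genes in general. In edgeR's quasi-likelihood test of the replicate number with the fraction in the model, 0 members and 0% of genes were called, and 4 members (*Ramp2*, *Eng*, *Esam* and *Cdh5*) had an unadjusted p under 0.05, against 12.4% of all genes. The likelihood ratio test called 2 members, *Eng* (adjusted p = 0.00038) and *Ramp2* (adjusted p = 0.016), against 6.42% of all genes. Without Vmed 1 the quasi-likelihood test called 4 members (*Eng*, *Esam*, *Cldn5* and *Ramp2*), beside 20.7% of all genes tested there. Without Vhigh 1 it called 3 (*Eng*, *Cldn5* and *Ramp2*), beside 5.27% of genes, and without Vhigh 3 it called 1 (*Eng*), beside 0.979% of genes. The high *Rn45s* share of both libraries numbered 3 moved with the replicate number, as did the alignments that the counting assigned to no feature. These were 0.184 and 0.158 per gene count in Vmed 3 and Vhigh 3 and 0.649 to 1.56 in the other 4 libraries. The part of these differences in the result was not tested.

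**Figure D4:**
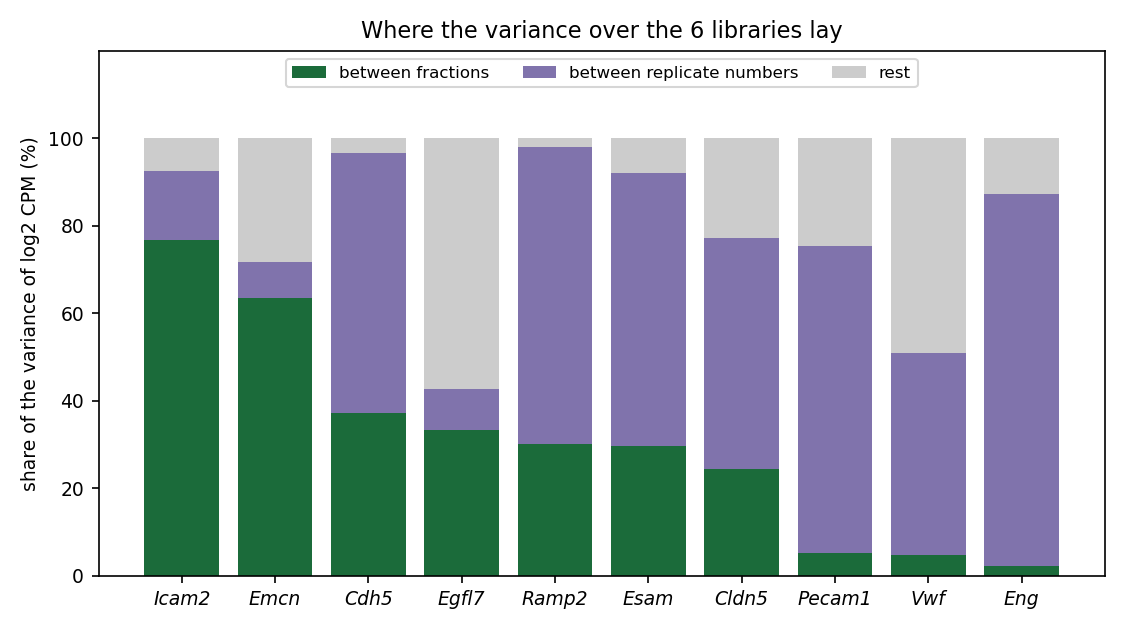
Share (%) of the variance of log2 CPM over the 6 libraries that lay between the fractions, between the replicate numbers and in the rest, for each pan-endothelial gene, ordered by the share of the fraction. *Icam2* (76.6%) and *Emcn* (63.5%) are at one end and *Eng* (2.16%) at the other.

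Levels were compared between genes per length of their exons (RPKM, CPM per kilobase of merged exons). In Vmed, *Cldn5* had the highest mean level at 184 RPKM, followed by *Emcn* (141), *Esam* (134), *Egfl7* (107), *Icam2* (84.1), *Ramp2* (76.5), *Pecam1* (62.3), *Cdh5* (58.1), *Eng* (41.6) and *Vwf* (7.66), and all neighbors in this order overlapped in range. In Vhigh the order was *Cldn5* (93.5), *Esam* (81.1), *Egfl7* (70.3), *Emcn* (54.9), *Icam2* (48.9), *Pecam1* (43.9), *Eng* (37.4), *Ramp2* (34.1), *Cdh5* (27.5) and *Vwf* (7.95 RPKM), and only *Cdh5* and *Vwf* at the end did not overlap. *Vwf* was last in both fractions, also when the longest transcript was used as the length. The top of the order depended on the length, as *Emcn* (216 RPKM) led in Vmed and *Egfl7* (135 RPKM) in Vhigh when the longest transcript was used. It also rested on the libraries numbered 3: without them *Cldn5* had 71.7 RPKM in Vmed and 14.4 RPKM in Vhigh, *Emcn* (131 RPKM) led in Vmed and *Egfl7* (66.8 RPKM) in Vhigh, and *Eng* (6.14 RPKM) took the place of *Vwf* (9.28 RPKM) at the end of the Vmed order.

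Most members varied together over the 6 libraries, with *Vwf* apart and *Eng* only weakly related to several. Pearson's r of log2 CPM was above 0 for 40 of the 45 pairs of members, and the highest values were 0.94 for *Esam* with *Cldn5*, 0.91 for *Cdh5* with *Esam* and 0.90 for *Emcn* with *Egfl7*. The 5 pairs below 0 all contained *Vwf*, down to -0.48 with *Cldn5*. Apart from *Vwf*, the values of *Eng* ran from 0.17 with *Icam2* to 0.75 with *Pecam1*. Those of *Cldn5* include its 2 counts in Vhigh 1. The share of pairs above 0 over all genes was not computed. The mean log2 CPM of the 10 members was 6.80, 7.998 and 8.51 in Vmed libraries 1, 2 and 3 and 6.03, 6.67 and 7.95 in Vhigh. Libraries numbered 3 were highest in both fractions, and those numbered 1 lowest. In Vhigh the lowest place rests on *Cldn5*, at -1.31 log2 CPM in Vhigh 1, a value set by 2 counts and the prior count. Without *Cldn5*, Vhigh 1 would not lie below Vhigh 2. Among 9547 other genes of at least 10 CPM on average, *Ppap2a* (r = 0.99), *Ppfibp1* (0.99), *Fgfr1op2* (0.99), *Pxdn* (0.98) and *Slc2a1* (0.98) followed the mean of the 10 members, *Cldn5* included, most closely. *Nudt5* (-0.99), *Eef1e1* (-0.99), *Acot2* (-0.98), *Acer3* (-0.98) and *Siva1* (-0.98) ran most opposite to it. With 6 points that share the replicate structure of these libraries, such values describe the libraries and carry no test.

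The genes of molecules that work with the members did not pass the adjusted threshold either. Of 15 cytoplasmic and transmembrane junction partners, 11 had a log2 fold change below 0, with a median of -0.44, and 1 had an unadjusted p under 0.05. It was *Ctnna1*, which encodes α-catenin, the link from cadherin complexes to actin, with 341, 930 and 606 CPM in Vmed and 255, 192 and 353 CPM in Vhigh. Vmed 1 lay just under Vhigh 3, and the log2 fold change was -1.22 ± 0.50. *Ctnnb1*, which encodes β-catenin and falls outside the rule for named genes, had a log2 fold change of -0.23 ± 0.52. Of 9 receptors and ligands that pair with *Ramp2*, *Eng* or *Icam2*, 6 could be tested and 0 had an unadjusted p under 0.05 (median -0.51). Of 10 genes of Weibel-Palade bodies, the organelle of *Vwf*, 9 could be tested and likewise 0 had an unadjusted p under 0.05 (median -0.84). By adjusted p in edgeR's quasi-likelihood test 0 genes of these lists were called.

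A separate list of 30 endothelial genes had a median log2 fold change of -0.57, with 24 below 0 and 6 above. In this list 2 genes had an unadjusted p under 0.05 and were lower in Vhigh. *Ecscr*, which encodes an endothelial surface protein, had 329, 466 and 294 CPM in Vmed and 150.2, 168 and 140.01 CPM in Vhigh, without overlap (log2 fold change -1.28 ± 0.43). *Stab1*, which encodes a scavenger receptor of sinusoidal endothelium and of some macrophages, had 137, 606 and 551 CPM in Vmed and 13.5, 47.0 and 179.6 CPM in Vhigh (-2.44 ± 0.85), and it was called by the likelihood ratio test with the block (adjusted p = 0.0013). *Eltd1*, which encodes an adhesion G protein-coupled receptor of vessels, went the other way, with 72.7, 108 and 141 CPM in Vmed and 223, 195 and 208 CPM in Vhigh (0.94 ± 0.49). The replicate number had an unadjusted p under 0.05 for 13 of these 30 genes, against 12.4% of all genes.

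The pan-hematopoietic list had the opposite direction, unlike the macrophage, megakaryocyte and erythroid lists given below. Of 22 pan-hematopoietic genes, 20 had a log2 fold change above 0 (median 1.18), 6 had every Vhigh library above every Vmed library, against 3.64% of all genes, and 1 had every Vhigh library below, against 5.3%. *Myb*, which encodes a transcription factor required for definitive hematopoiesis, had 1.83, 1.33 and 5.97 CPM in Vmed and 73.3, 199 and 104 CPM in Vhigh (5.26 ± 0.81). *Ikzf1*, which encodes the lymphoid and progenitor factor Ikaros, had 17.4, 5.30 and 22.5 CPM in Vmed and 136, 287 and 205 CPM in Vhigh (3.71 ± 0.65). The adhesion receptor *Cd44* had 66.6, 62.4 and 74.7 CPM in Vmed and 272, 343 and 278 CPM in Vhigh (2.09 ± 0.44). None of them passed the threshold of the quasi-likelihood test (adjusted p = 0.66 for *Myb*), and all 3 were called by the likelihood ratio test with the replicate block (adjusted p = 0.00026, 0.0013 and 0.0029). *Cd53*, a leukocyte tetraspanin gene named after its values were seen, was lower in every Vhigh library (log2 fold change -2.37 ± 0.71). Of the genes behind the sort, *Kit* had 64.1, 208 and 59.1 CPM in Vmed and 254, 490.3 and 521 CPM in Vhigh (1.91 ± 0.57, no overlap, and called by the likelihood ratio test with the block at an adjusted p of 0.034), whereas *Gata2* had 50.3, 29.4 and 68.3 CPM against 39.2, 82.5 and 142 CPM (0.78 ± 0.73), with overlap.

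**Figure D5:**
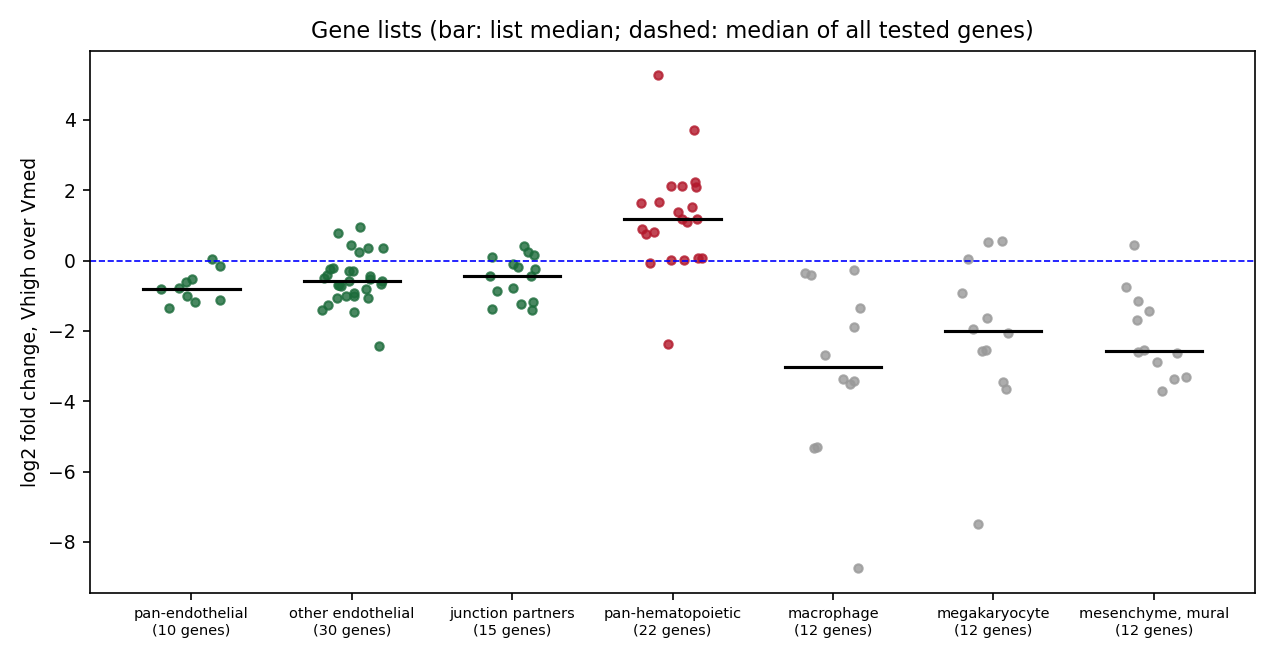
Log2 fold change of Vhigh over Vmed of each tested gene in 7 gene lists. Each point is a gene, the black bar is the median of the list and the dashed line the median of all tested genes (-0.02). The medians are -0.80 for the 10 pan-endothelial genes, -0.57 for 30 other endothelial genes, 1.18 for 22 pan-hematopoietic genes and -3.02 for 12 macrophage genes.

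Markers of other cell types also had lower levels in Vhigh, with medians below that of the pan-endothelial genes. The summed level of 12 macrophage genes was 1138 to 2100.3 CPM in Vmed and 196 to 712 CPM in Vhigh, 12 of 12 had a log2 fold change below 0 (median -3.02), and 6 did not overlap, beside the 5.3% of all genes given above. *Adgre1*, which encodes the macrophage antigen F4/80, had 60.1, 34.6 and 29.6 CPM in Vmed and 0, 0 and 0.249 CPM in Vhigh. *Mrc1* was at 86.4 CPM or more in every Vmed library and at 26.1 CPM or less in every Vhigh library, and *Cx3cr1* likewise at 118 or more and 20.9 or less. The summed level of 12 mesenchymal and mural genes was 1762 to 4749 CPM in Vmed and 365 to 658 CPM in Vhigh, with 6 of 12 not overlapping (median -2.56), among them *Col1a2*, *Col1a1* and *Postn*. For 12 megakaryocyte genes the sums were 795 to 1344 and 199.5 to 549 CPM, with 7 of 12 not overlapping (median -1.999), among them *Thbs1*, *Gp6* and *Pf4*. Of 10 epithelial genes 8 were tested and 3 did not overlap (*Krt8*, *Cldn6* and *Krt18*, median -1.98), with sums of 166 to 318 and 83.9 to 159 CPM. Of 12 erythroid genes 6 were tested and 1 did not overlap (*Hba-x*, median -0.85), with sums of 188 to 602 and 101 to 233 CPM. All genes that did not overlap in these 5 lists were lower in Vhigh, and 0 of them passed the adjusted threshold of the quasi-likelihood test. The likelihood ratio test with the replicate block called 6 of the 12 macrophage genes (*Adgre1*, *Mrc1* and *Cx3cr1* among them, with adjusted p of 0.0037, 0.0049 and 0.0089), 4 of the 12 mesenchymal and mural genes (*Col1a1* and *Col1a2* among them, 0.0013 and 0.013) and 2 of the 12 megakaryocyte genes (*Thbs1* and *Pf4*, 0.00017 and 0.0015), all lower in Vhigh. The part of these cell types in the pan-endothelial result was not tested. The summed level of the 10 pan-endothelial genes itself was 1542, 3626 and 4217 CPM in Vmed and 1230.1, 1410.4 and 2721 CPM in Vhigh, which overlapped.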

How the data were processed

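Per the labels and the study's methods, cDNA was amplified with the SMARTer kit, single-end reads were aligned to GRCm38/mm10 with TopHat and Bowtie 1.1.2, and HTSeq counted reads per gene. The authors deposited these raw counts, 1 table per library. The annotation and strand setting are not given in the sources used here. The 5 rows that name no gene, which held 55% to 77.2% of alignments, were left out. CPM are counts per 1000000 of the gene total, and RPKM used exon lengths from GENCODE (22758 symbols matched directly, 935 through an older symbol and 369 not).

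Genes were filtered with filterByExpr, normalized by TMM and tested in edgeR 4.0.16 (R 4.3.3) by the quasi-likelihood test with Benjamini-Hochberg adjustment at 0.05, with the fraction as the only term. Log2 CPM used TMM and a prior count of 2, and pair differences, overlap, variance shares and correlations were taken on that scale. The permutation test enumerated 20 arrangements. The replicate numbers of the labels were taken to pair the libraries, as same-numbered libraries correlated above 0.1 (0.21, 0.21 and 0.39, against -0.29 to -0.01 for other numbers). Neither the labels nor the methods say whether same-numbered libraries shared a sort, so the pairing rests on these same counts. Each fraction was centered on its own mean, so the values for other numbers are partly fixed by those for the same number. No library was a copy of another (chi-square per degree of freedom of 94.6 or more). The code was checked on simulated counts, which spread less between libraries than these data. That check did not cover the fraction test with the replicate block.

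The members and lists were chosen with earlier results of these data known. The genes named are all members, *Kit*, *Gata2*, up to 3 genes per other list with the smallest p among those with p under 0.05 or no overlap, and the 5 genes most and least like the members' mean. Alternatives were RLE, upper-quartile and library-size scaling, 2 other filters, the likelihood ratio test, robust quasi-likelihood, the replicate block, DESeq2 1.42.0, limma-voom (limma 3.58.1), a prior count of 0.5, transcript length, and libraries or numbers left out. Removal of *Rn45s* was added after seeing the data.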

Additional observations from a re-analysis of the deposited data

How the results depend on the processing

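Under 21 alternatives per gene, 0 of the 10 members were called between Vhigh and Vmed, and the log2 fold change stayed below 0 in all 21 for *Cdh5*, *Egfl7*, *Emcn*, *Esam*, *Icam2*, *Pecam1* and *Ramp2*. The size was less stable than the sign. Without replicate number 2, *Pecam1* was at -0.01 and *Egfl7* at -0.16, and without Vmed 3 *Ramp2* was at -0.32. *Eng* reversed to 0.52 with the replicate block (both tests) and to 0.51 with limma-voom. *Cldn5* moved to -2.56 with the block in the quasi-likelihood test and to -3.25 with limma-voom. With libraries or numbers left out *Eng* ranged from -2.03 to 2.66, *Vwf* from -0.49 to 0.96 and *Cldn5* from -3.82 to 0.38. The number of all genes called between the fractions was 0 in the quasi-likelihood test and 37 with no filter, 21 with the likelihood ratio test, 74 with the likelihood ratio test and the replicate block, 51 with DESeq2 and 0 to 1 with libraries left out (1 without Vhigh 1). The replicate block changed no adjusted call of a member. For the replicate number, 0 genes became 266 with no filter, 815 with the likelihood ratio test, 1 with robust quasi-likelihood and 0 to 2944 with libraries left out (2944 without Vmed 1), and members called went from 0 to 1, 2 and 0 to 4 under no filter, the likelihood ratio test and libraries left out, respectively. Members without overlap numbered 2 to 6 with libraries or numbers left out, where the share over all genes was not computed. The cause of these shifts was not tested. A biological coefficient of variation of 1.16 over 3 libraries per fraction limits what can be called. Among the members only *Cldn5* in Vhigh 1 was at 3 counts or fewer. That library had more gene counts (10660122) than any Vmed library, and the cause of the low value was not tested.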
